A study of Homo sapiens with 31 samples.

Results

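YLPM1 was followed here through a single transcript, ENST00000325680.12, across 31 libraries made from HEK293 T-REx, a human embryonic kidney cell line built for inducible expression of a transgene. It is 1 of 227264 transcripts in the deposited count files, chosen by its identifier and its listed length of 2137. The identifier was picked because earlier values from the same footprint libraries had shown a rise under PP242 in naive and EIF4A2 knockout (KO) cells and a high untreated level in EIF4A1 KO cells. Those footprint values are therefore given as a description, with no test. The stated grounds of the choice give no RNA-seq or pulldown result, so those values were tested, though earlier results of these data were known. The files carry transcript identifiers only. The name YLPM1 came with the identifier, and no table used here pairs them.

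YLPM1, also known as ZAP3, is a large nuclear protein named after its YLP motifs, and it binds protein phosphatase 1. PP242 inhibits the kinase mTOR, whose complex mTORC1 promotes translation initiation. When mTORC1 is inhibited, LARP1, an RNA-binding protein, represses mRNAs that begin with a C followed by a run of pyrimidines (terminal oligopyrimidine, or TOP, mRNAs). eIF4A1 and eIF4A2 are paralogous RNA helicases of the initiation factor eIF4F, which prepares the 5′ end of an mRNA for the ribosome.

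Ribosome profiling, which counts RNA fragments protected by ribosomes, was done on 12 libraries. Naive, EIF4A1 KO and EIF4A2 KO cells each had 2 DMSO libraries, 1 library after 30 min of 1 µM PP242 and 1 after 30 min of 10 µM. RNA-seq had 2 libraries of naive cells and 2 of EIF4A1 KO cells. Cells expressing eIF4A1 or eIF4A2 with a streptavidin-binding peptide (SBP) gave 2 input and 2 streptavidin pulldown libraries per protein. SBP-eIF4A1 cells transfected with siRNA for 72 h gave 2 input and 2 pulldown libraries with control siRNA (siControl), and 2 input libraries and 1 pulldown library with LARP1 siRNA (siLARP1). The labels do not say whether a KO line is 1 clone, or whether replicates came from separate cultures, so p-values measure the spread between these libraries only. The genotypes and the LARP1 knockdown rest on the labels, because transcripts could not be paired with EIF4A1, EIF4A2 or LARP1. No pulldown from cells without a tagged protein was analysed here.

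The annotated 5′ end of the gene is shown because TOP mRNAs are defined by their first bases. In RefSeq (GRCh38.p14, the same primary assembly as the hg38 build named in the submitters' processing notes) YLPM1 lies on the plus strand of chromosome 14, from 74763316 to 74837318. The window below covers the 50 bases before the annotated start and the first 10 transcribed bases (capitals), at chr14:74763266-74763325.
YLPM1 start: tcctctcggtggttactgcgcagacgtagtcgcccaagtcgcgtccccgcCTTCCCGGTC
From the annotated start the sequence opens with C and has 6 pyrimidines in a row. This is the start of the RefSeq gene, which was not paired with ENST00000325680.12. A start of C followed by at least 4 pyrimidines (C or T), read only on the transcribed strand and only at the annotated start, was present in 1429 of 35116 RefSeq start windows (4.07%). RefSeq starts were not measured in these cells, and the match says nothing of which factors bind there.

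Footprints on the YLPM1 transcript stood at 2 separate levels across the 12 profiling libraries. Values are read counts scaled to library size (CPM, after TMM scaling of the 12 libraries), with exact 95% Poisson intervals that cover counting error only. Levels and changes are thus relative to the other transcripts and give no absolute amount of ribosomes. In naive cells the DMSO libraries held 34.35 CPM (29.5 to 39.8, from 177 counts) and 30.5 CPM (26.2 to 35.3, from 181 counts). The library at 1 µM PP242 held 77.5 CPM (69.3 to 86.4) and that at 10 µM held 95.4 CPM (84.2 to 107.6). Both PP242 libraries lay above both DMSO libraries, with no overlap of the intervals. PP242 at either dose against DMSO gave a log2 fold change of 1.40 (SE 0.117), or 2.64-fold. Taken one at a time against the DMSO pair, the 1 µM library stood at 1.26 (SE 0.134) and the 10 µM library at 1.56 (SE 0.142), and their counting intervals overlapped.

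EIF4A2 KO cells showed the same order of libraries. Their DMSO libraries held 42.6 CPM (36.9 to 48.9, from 201 counts) and 37.7 CPM (32.5 to 43.4, from 191 counts). The 1 µM library held 85.8 CPM (77.5 to 94.7) and the 10 µM library 95.9 CPM (87.7 to 104.6). The log2 fold change under PP242 was 1.18 (SE 0.108), or 2.27-fold, with 1.10 (SE 0.128) at 1 µM and 1.26 (SE 0.122) at 10 µM. The DMSO libraries again lay below both PP242 libraries.

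EIF4A1 KO cells had high footprints without the drug. Their DMSO libraries held 99.1 CPM (87.4 to 111.9, from 261 counts) and 86.6 CPM (75.2 to 99.1, from 209 counts). The libraries at 1 µM and 10 µM PP242 held 81.0 CPM (72.6 to 90.1) and 87.6 CPM (80.7 to 94.9), within or below the range of the DMSO libraries. The log2 fold change under PP242 was -0.13 (SE 0.106, 95% interval -0.35 to 0.08), with -0.20 (SE 0.128) at 1 µM and -0.09 (SE 0.117) at 10 µM. Scaling by library totals turned its sign, at 0.009, since that scaling moved the median of all transcripts up by 0.143. Relative to that median the transcript stood at -0.14 under both scalings.

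Ordered by level, the 4 DMSO libraries of naive and EIF4A2 KO cells filled the lowest places, from 30.5 to 42.6 CPM. The other 8 libraries, all those with PP242 and both EIF4A1 KO DMSO libraries, ran from 77.5 to 99.1 CPM. The step between the groups, from EIF4A2 KO DMSO replicate 1 to naive cells at 1 µM, was 1.82-fold, and the counting intervals on either side of it did not overlap. Every other pair of neighbours in the order had overlapping intervals and differed by 1.13-fold or less. Of these 8 libraries, 6 were shallower (2513043 to 4355133 counts over 1 transcript per locus) than all 4 low ones (4987042 to 6384700). The other 2, EIF4A2 KO and EIF4A1 KO cells at 10 µM, held 5039000 and 6413681 counts. The part of depth in the step was not tested. The transcript was chosen for this order of groups, so the step is a description and no test of 2 levels. Over all transcripts, replicates also spread beyond counting error. The chi-square per degree of freedom was 1.63 for naive, 1.67 for EIF4A2 KO and 1.30 for EIF4A1 KO cells in DMSO.

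**Figure D1:**
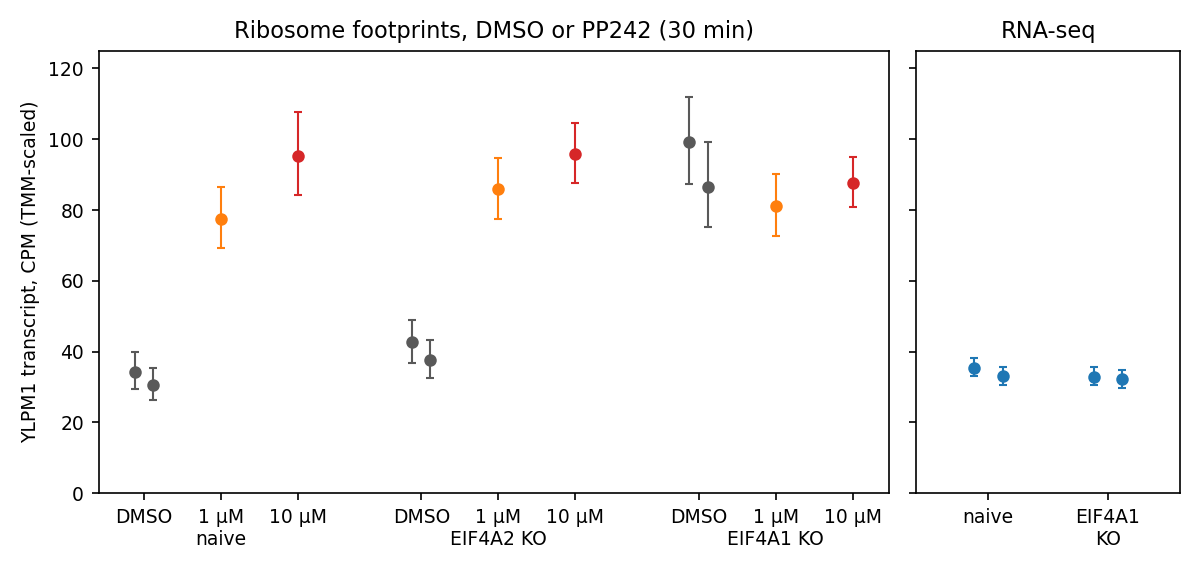
Levels of the YLPM1 transcript in CPM (y axis) in the 12 ribosome profiling libraries (left, by genotype and treatment) and the 4 RNA-seq libraries (right); each point is 1 library and each bar its exact 95% Poisson interval. The 4 DMSO libraries of naive and EIF4A2 KO cells sit between 30.5 and 42.6 CPM and the other 8 profiling libraries between 77.5 and 99.1, while RNA-seq levels, scaled separately, lie between 32.2 and 35.5.

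In DMSO alone, the footprint level of EIF4A1 KO cells exceeded that of naive cells by 1.52 on the log2 scale (SE 0.12), or 2.87-fold. EIF4A2 KO cells exceeded naive cells by 0.31 (SE 0.124), or 1.24-fold. These fold changes and those under PP242 share the DMSO libraries, so they are not separate pieces of evidence. The labels do not say whether the genotypes were profiled together.

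The size of these values among all transcripts is a description, since they chose the transcript. For PP242 in naive cells, 17 of 20269 transcripts tested had a higher log2 fold change, the median was 0.006, and 9.53% of all transcripts were called in either direction at an adjusted p under 0.05. In EIF4A2 KO cells 86 had a higher value, against a median of 0.02 and 12% called. In EIF4A1 KO cells 13644 had a higher value, which put the transcript in the lower part of the distribution, and 6.17% were called. For EIF4A1 KO against naive cells in DMSO, 62 of 19650 transcripts had a higher value, with 22.8% called. The number called fell in each of these comparisons whenever 1 library was left out, which left 1 library in a group of 2. The larger falls are given here, and a library's own part cannot be told apart from the lost replicate. In naive cells the 1932 calls under PP242 fell to 869 without the 1 µM library and 1026 without DMSO replicate 2. In EIF4A2 KO cells the 2433 calls fell to 1480 without the 1 µM library, and to 1520 and 1610 without DMSO replicates 1 and 2. In EIF4A1 KO cells the 1251 calls fell to 453 and 734 without DMSO replicates 1 and 2, and to 737 without the 1 µM library. The 4488 calls in DMSO fell to 2581 without EIF4A1 KO replicate 1 and 2900 without naive replicate 2.

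The listed length of YLPM1 is high, and 98.8% of 34313 transcripts kept at 1 per locus had a lower one. The files give neither the unit of this length nor which region it covers, and transcripts are called long below by this listed value only. Among the 686 transcripts with a length of at least 1500 tested for PP242, 1 rose more in naive cells and 4 rose more in EIF4A2 KO cells. The medians of these long transcripts were 0.12 in naive, 0.21 in EIF4A2 KO and -0.05 in EIF4A1 KO cells. For EIF4A1 KO against naive cells in DMSO the median of 672 long transcripts was 0.27, and 7 of them lay above YLPM1. Long transcripts as a group thus stood, under TMM scaling, on the same side of 0 as YLPM1 in each of the 4 comparisons, at smaller values.

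**Figure D2:**
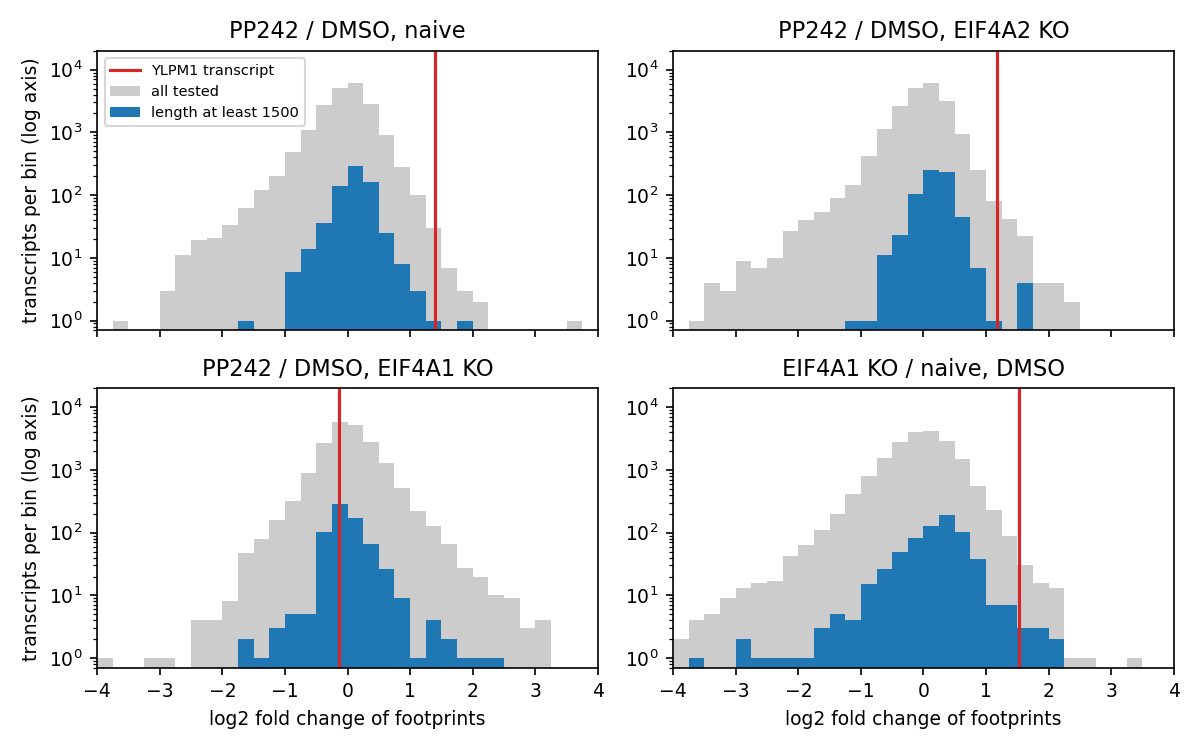
Number of transcripts per bin of 0.25 (y axis, log scale) against the log2 fold change of footprints (x axis) for PP242 in the 3 genotypes and for EIF4A1 KO over naive cells in DMSO, with all transcripts tested in grey, those with a listed length of at least 1500 in blue, and YLPM1 as the red line. YLPM1 lies in the upper tail in 3 panels (1.40, 1.18 and 1.52) and near the middle for PP242 in EIF4A1 KO cells (-0.13).

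The transcript shared no identical counts with another. Of the rows within 10 places of it in the table, 4 had a log2 CPM that correlated with it at r of 0.9 or more over the 31 libraries, and reads shared with them cannot be told apart. These rows have listed lengths of 100 to 1586 and were not paired with a gene. Scaled to library totals, where the YLPM1 transcript rose by 1.58 under PP242 in naive cells, the 4 rows rose by 1.56 to 1.69. In EIF4A2 KO cells they rose by 1.31 to 2.14, against 1.345 for the YLPM1 transcript. The highest value in each case came from the shortest row, with 840 counts in all libraries together. In EIF4A1 KO cells the 4 rows stood between -0.46 and 0.03. Their pulldown values on the same scale lay between -1.63 and -1.10 with SBP-eIF4A1, -0.72 and -0.52 with SBP-eIF4A2, and 1.68 and 1.96 after siControl. These rows were picked by their correlation with YLPM1 over all 31 libraries. Their likeness to it was thus built in and is no separate evidence.

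By likeness of the 12 footprint levels, 2 other transcripts came closest. The measure was Pearson's r of log2 CPM over 7189 transcripts that reached 50 counts in each profiling library and lay more than 50 rows away. ENST00000310053.10 had r = 0.968, with 119.6 and 104.5 CPM in naive DMSO, 142.7 at 1 µM and 161.4 at 10 µM PP242. In EIF4A1 KO cells it held 178.3 and 164.1 CPM in DMSO, above its naive PP242 libraries. ENST00000397938.6 had r = 0.963, with 310.6 and 313.8 CPM in naive DMSO and 470.3 and 479.7 at 1 and 10 µM. The median r of the 7189 transcripts was 0.045, and 55 reached 0.9. These correlations rest on the same 12 libraries that chose YLPM1, and no gene names were available for the 2 transcripts.

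RNA levels did not show the difference seen in footprints. The naive RNA-seq libraries held 35.5 and 33.05 CPM of the YLPM1 transcript, and the EIF4A1 KO libraries 32.9 and 32.2 CPM. All 4 libraries lay within a narrow range, with both KO libraries just under the lower naive one. The log2 fold change was -0.08 (SE 0.071, 95% interval -0.22 to 0.07), with an adjusted p of 0.436 by edgeR's quasi-likelihood test. The interval covers 0.858-fold to 1.05-fold. The 2.87-fold in footprints comes from a separate fit of values that chose the transcript, and it was not tested against this interval. In this comparison 37.1% of 24825 transcripts were called at an adjusted p under 0.05.

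Footprints relative to RNA were compared within a joint fit of both assays. In naive cells the ratio of footprint CPM to RNA CPM was 0.937, and 51.7% of 22058 transcripts with an RNA level of at least 1 CPM had a lower ratio. In EIF4A1 KO cells the ratio was 2.83, and 95.4% of 21652 transcripts were lower. The median transcript had ratios of 0.91 and 0.912. Long transcripts (length of at least 1500) had median ratios of 0.6 and 0.698, and YLPM1 exceeded 72.3% of 752 of them in naive cells and 96.3% of 729 in EIF4A1 KO cells. The log2 change of the ratio for YLPM1 was 1.61 (SE 0.136), given without a test because the footprint part chose the transcript. RNA-seq was done only on naive and EIF4A1 KO cells and with no PP242 label, so the RNA level under PP242 was not analysed here.

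In the pulldowns without siRNA the YLPM1 transcript fell below its input with both proteins. With SBP-eIF4A1 the inputs held 65.4 and 65.5 CPM, and the pulldowns 28.8 and 29.5 CPM. With SBP-eIF4A2 the inputs held 62.15 and 55.0 CPM, and the pulldowns 34.3 and 37.9 CPM. All 4 pulldown libraries lay below all 4 inputs, and the SBP-eIF4A1 pulldowns lay below the SBP-eIF4A2 pulldowns. The log2 enrichment was -1.17 (SE 0.088) with SBP-eIF4A1, with an adjusted p of 6.49e-09 by edgeR's quasi-likelihood test. With SBP-eIF4A2 it was -0.70 (SE 0.0813, edgeR adjusted p 1.27e-06). Calls were common in both comparisons, at 55.5% and 60% of 25506 transcripts.

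The depletion was deeper with SBP-eIF4A1. The difference of the enrichments was -0.47 (SE 0.12, 95% interval -0.72 to -0.21, edgeR adjusted p 0.0125), where 16.3% of transcripts were called. This call was lost, at adjusted p-values of 0.0564 to 0.0991, when any one of SBP-eIF4A1 input 1, input 2, pulldown 1 or pulldown 2 or SBP-eIF4A2 input 2 was left out. The direction was kept in all 8 such fits. Protein and tagged line cannot be told apart in this difference, and the labels do not say whether the 2 lines were handled together. Among the 790 transcripts with a length of at least 1500 the median difference was -0.38, and 38.5% lay below YLPM1. Of these long transcripts 336 were called lower and 7 higher, so the direction was common among them. The inputs of the 2 tagged lines differed by 0.16 (SE 0.0788, 95% interval -0.007 to 0.33, edgeR adjusted p 0.188), which is not a call, beside 19% of transcripts called. It was 0.078 without SBP-eIF4A2 input 2 and 0.251 without SBP-eIF4A2 input 1, so its size rested on single libraries.

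**Figure D3:**
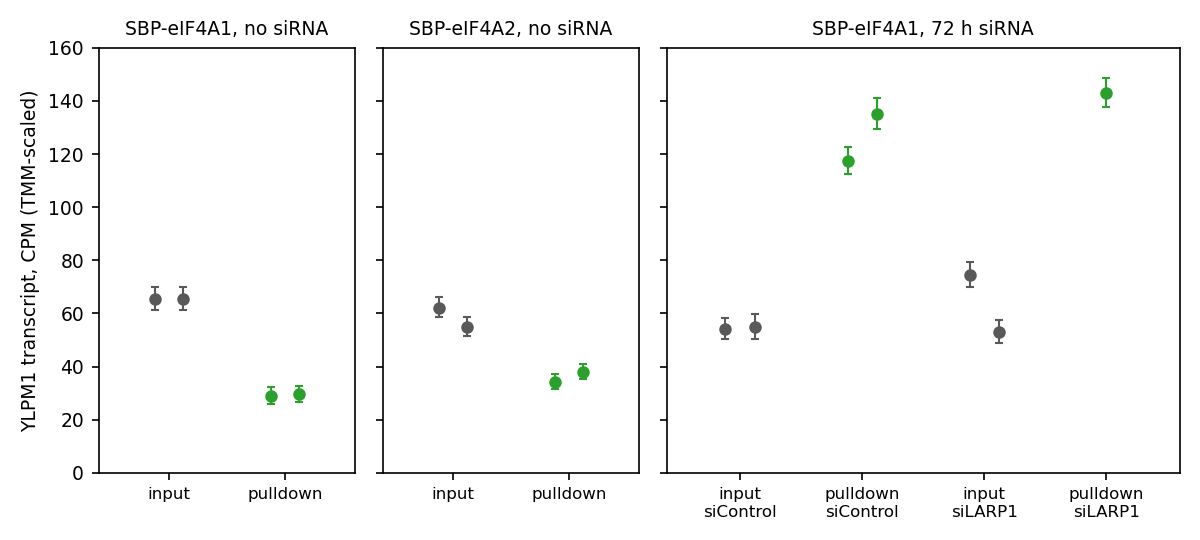
Levels of the YLPM1 transcript in CPM (y axis) in input (grey) and pulldown (green) libraries of the SBP-eIF4A1 and SBP-eIF4A2 lines without siRNA and of the SBP-eIF4A1 line after 72 h of siRNA; each point is 1 library, each bar its exact 95% Poisson interval, and the siRNA panel was scaled separately. Pulldowns lie below inputs without siRNA (28.8 to 37.9 against 55.0 to 65.5) and above them after siRNA (117.4 to 143.1 against 53.0 to 74.6).

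In the siRNA experiment the same transcript was enriched with SBP-eIF4A1. The siControl inputs held 54.3 CPM (50.5 to 58.2, from 779 counts) and 55.0 CPM (50.5 to 59.9, from 543 counts). The pulldowns held 117.4 CPM (112.3 to 122.7, from 1960 counts) and 135.1 CPM (129.3 to 141.1, from 2037 counts), so both pulldowns lay far above both inputs. Over all transcripts these 2 pulldowns differed widely, with a chi-square of 12.9 per degree of freedom. Without siRNA it was 1.83 between the SBP-eIF4A1 pulldowns and 6.86 between the SBP-eIF4A2 pulldowns. The log2 enrichment was 1.21 (SE 0.195), with an adjusted p of 3.35e-06 by edgeR's quasi-likelihood test, where 49.1% of 25602 transcripts were called. When the siControl and siRNA-free SBP-eIF4A1 libraries (8 in all) were fitted together, the difference of the enrichments was 2.43 (SE 0.16, edgeR adjusted p 4.16e-08), beside 50.9% of 25019 transcripts called. The siRNA transfection and the experiment cannot be told apart in this difference.

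Listed length moved with this reversal. Without siRNA the 790 transcripts with a length of at least 1500 had a median log2 ratio of pulldown to input of -0.84 (SBP-eIF4A1) and -0.43 (SBP-eIF4A2), against 0.031 and 0.017 over all transcripts. After siControl the median of 810 long transcripts was 0.91, against 0.076 over all. Among the long transcripts 33.2% lay below YLPM1 with SBP-eIF4A1, 37.1% with SBP-eIF4A2 and 61.9% after siControl. YLPM1 thus stood within the body of the long transcripts in all 3 pulldowns. The part of listed length in its enrichment was not tested.

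**Figure D4:**
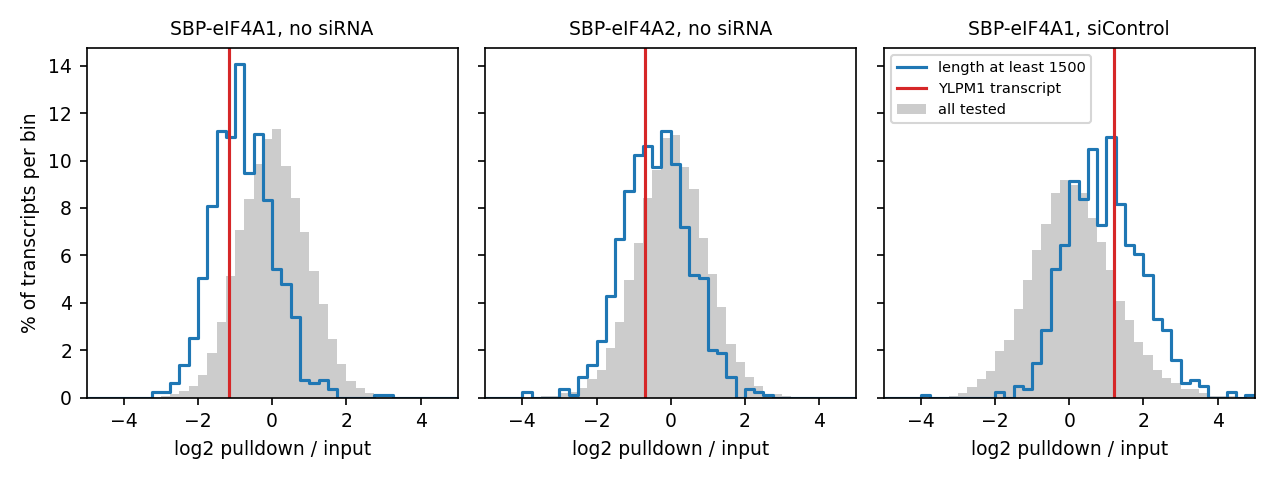
Share of transcripts per bin of 0.25 in percent (y axis) against the log2 ratio of pulldown to input (x axis) in the 3 SBP pulldowns, with all transcripts tested in grey, those with a listed length of at least 1500 as the blue line and YLPM1 as the red line. Long transcripts lean to the left of all transcripts without siRNA (medians -0.84 and -0.43) and to the right after siControl (median 0.91), and YLPM1 stands within them at -1.17, -0.70 and 1.21.

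After LARP1 siRNA the input level did not differ detectably, and the capture rests on 1 pulldown library, with no replicate of its own. The siLARP1 inputs held 74.6 CPM (69.9 to 79.5) and 53.0 CPM (48.9 to 57.4), a spread that encloses both siControl inputs. These 2 libraries differed widely over all transcripts too, with a chi-square of 14.5 per degree of freedom, against 6.96 between the siControl inputs and 1.45 between the SBP-eIF4A1 inputs without siRNA. The log2 difference of the inputs was 0.22 (SE 0.194, 95% interval -0.17 to 0.62, edgeR adjusted p 0.703), beside 0.457% of transcripts called. Without siLARP1 input replicate 1 it was -0.029 (edgeR adjusted p 0.968), so its sign rested on that library. The 1 siLARP1 pulldown library held 143.1 CPM (137.6 to 148.7), above both siControl pulldowns. Its counting interval overlapped that of siControl pulldown 2 (129.3 to 141.1).

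The change of enrichment after LARP1 siRNA was -0.04 (SE 0.302, 95% interval -0.66 to 0.57, edgeR adjusted p 1). The lone pulldown library is assumed there to vary like the other groups. In fold terms the interval runs from 0.634 to 1.49. No transcript was called in this contrast (0% of 25602) by edgeR, with 798 at an unadjusted p under 0.05, and DESeq2 also called 0. Without siLARP1 input replicate 1 the change was 0.202, and without siControl pulldown replicate 2 it was 0.06, so its sign was not settled.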

How the data were processed

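Each library had 1 deposited file of raw counts per Ensembl transcript, whole numbers with no scaling by the authors, as read from their values. A second, other column deposited by the authors lists a length. It was used to compare transcripts by length and to mark those of at least 1500 as long. Per the submitters' processing notes, hg38, CASAVA 1.8 and STAR 2.7.0a were named; the counting tool and annotation are not given in the sources used here.

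Of 94734 transcripts with counts, 26549 shared all counts with another. They were collapsed to 77343 distinct transcripts. Going down by total count, a transcript was dropped when its log2 CPM correlated at 0.9 or more with a kept one within 10 rows, which left 34313. Over these, profiling libraries held 2513043 to 6413681 counts, pulldown and input libraries 11864699 to 17594902, and RNA-seq libraries 19660695 to 21577349. YLPM1 itself had 177 to 597, 324 to 2578 and 632 to 764 counts.

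Tests used edgeR 4.0.16 in R 4.3.3 (TMM, filterByExpr with a minimum count of 10 and total of 15, glmQLFit, glmQLFTest, two-sided), adjusted over all transcripts tested by Benjamini-Hochberg and called under 0.05. Separate fits covered the RNA-seq, the DMSO profiling, the joint RNA-seq and DMSO profiling, the 12 profiling, the pulldown, the siRNA and the combined SBP-eIF4A1 libraries, each with 1 mean per group. The 2 PP242 doses formed 1 group per genotype. Intervals use the fit's t distribution. The tests were tried on simulated counts. Alternatives included DESeq2 1.42.0, other filters and scalings, and leaving out libraries.

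The transcript, the rules for transcripts named beside it and the lists were chosen with earlier results of these data known. Named transcripts were YLPM1 and the 2 most like it. A planned list of YLPM1 partner genes gave no values, because no table used here pairs transcripts with genes.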

Additional observations from a re-analysis of the deposited data

Results flagged for a closer look

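The enrichment of the YLPM1 transcript differed between the 2 proteins by a test of the difference itself: SBP-eIF4A1 minus SBP-eIF4A2 was -0.469 on the log2 scale (edgeR adjusted p 0.0125). Over its alternatives with all libraries the edgeR or DESeq2 adjusted p ran from 0.000229 to 0.0176. With 1 library left out the difference ran from -0.559 to -0.386, and 3 of 8 such fits kept the call. Protein and tagged line coincide in this difference and cannot be told apart.

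The enrichment with SBP-eIF4A1 also differed between the siControl experiment and the experiment without siRNA, by 2.431 (edgeR adjusted p 4.16e-08; 8.48e-31 to 7.07e-08 over the alternatives with all libraries). Both pulldowns lay above both inputs with siControl, and both lay below without siRNA. The median of 794 long transcripts in the same contrast was 1.77, and 79.1% of them lay below YLPM1. For the difference between proteins the median of 790 long transcripts was -0.377, and 38.5% of them lay below YLPM1.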

How the results depend on the processing

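Of 157 alternative values for 15 results, 138 kept their direction and side of the threshold, or moved less than the replicate spread. For PP242 in naive cells the value was 1.557 with library totals, 1.261 at 1 µM alone, 1.56 at 10 µM alone, 0.818 as a slope per step of a dose score (0, 1 and 2), and 1.256 to 1.556 with a library left out. In EIF4A2 KO cells it was 1.335 with library totals and 0.655 as a slope. In EIF4A1 KO cells it was 0.009 with library totals. The footprint change beyond RNA ranged from 1.435 to 1.649 with a library left out, the difference of enrichments between proteins from -0.559 to -0.386, the siLARP1 input difference from -0.029 to 0.449, and the siLARP1 change of enrichment from -0.27 to 0.202. The sign turned in 1 alternative with all libraries, PP242 in EIF4A1 KO cells with library totals. It also turned in 3 with a library left out, all in the siLARP1 comparisons, and the cause was not tested. Library totals moved the median of all transcripts by 0.143 to 0.159 under PP242, by 0.43 after siControl and by -0.305 in the difference between proteins. In the last, YLPM1 stood at -0.502 from the median under both scalings. Library totals and crossed replicate numbers were chosen after seeing the data.

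Labels give only shared replicate numbers. Deviations of same-numbered libraries within an experiment correlated at -0.14 to 0.087, and at 0.554 for siControl input and pulldown. With the replicate block YLPM1 stood at -0.075 in RNA, -1.167, -0.696 and -0.471 in the pulldowns and their difference, 1.211 after siControl and 2.424 for the difference of the experiments, with no call on YLPM1 changed. Crossed numbers gave 337 calls in the siLARP1 inputs and 1830 in EIF4A2 KO against naive DMSO footprints, against 117 and 1600.

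RNA calls over all transcripts fell from 9218 to 5405 with DESeq2, and siLARP1 input calls reached 436 with no filter and 11 to 140 with a library left out. With a library left out, calls between proteins numbered 2393 to 7704 (4146 with all), and between inputs 2482 to 2576 (4846 with all). Testing all distinct transcripts raised the counts 2.89 to 5.28 times in the 14 comparisons with any call. The number tested rose in each as well, for example from 24825 to 64352 in RNA and from 20269 to 54938 under PP242. As slopes PP242 calls fell from 1932, 1251 and 2433 to 292, 0 (edgeR; 1995 at an unadjusted p under 0.05) and 455 in naive, EIF4A1 KO and EIF4A2 KO cells, and library totals raised them to 3429, 1860 and 3989. Calls for EIF4A1 KO in DMSO fell from 4488 to 2213 with DESeq2. With library totals the share of calls that were higher rose under PP242 from 39.6%, 38.4% and 40.9% to 80.6%, 81.9% and 78.4%, and moved from 65.1% to 16.6% between proteins, from 50.9% to 73.6% after siControl, from 62.4% to 97% in the siLARP1 inputs and from 52.4% to 74.7% between experiments. Depth limits the footprint levels, which rest on 177 to 597 counts.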
